A study of Mus musculus with 32 samples.

Results

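The mitochondrial ribosomal proteins are the nucleus-encoded proteins of the ribosome inside mitochondria, and their mRNAs were measured in sorted stem cells and progenitors of the mouse intestinal crypt. Members were all genes whose symbol begins with Mrpl or Mrps followed by a number, leaving out symbols that carry -ps for a pseudogene. The rule found 78 of the 50686 genes in the deposited tables, and all 78 passed the filter on low counts in each of the fits. By the names used for the mammalian ribosome, 26 of the genes encode small subunit proteins and 51 encode large subunit proteins, among them Mrps18a and Mrps30, which carry small subunit names. The remaining gene, Mrps36, was first listed as a small subunit protein and is now known as a component of the 2-oxoglutarate dehydrogenase complex.

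The study crossed a Cpt1a deletion with diet and sorted 2 populations from each combination, which gave 8 groups of 4 libraries and 32 libraries in all. Cpt1a is the outer mitochondrial membrane enzyme that lets long-chain fatty acids enter beta-oxidation, so the design addresses how a fat-rich diet and fatty acid oxidation bear on intestinal stem cells. In order, the groups were KO HF stem cells, KO HFC stem cells, WT HF stem cells and WT HFC stem cells, then KO HF progenitors, KO HFC progenitors, WT HF progenitors and WT HFC progenitors. KO mice were Cpt1afl/fl and carried the Villin-CreER and Lgr5-GFP-IRES-CreER alleles. WT mice carried the same pair of CreER alleles without the floxed Cpt1a, and all mice were on a C57BL6 background. HF is the High Fat diet and HFC the High Fat Control diet. The Villin promoter drives CreER across the intestinal epithelium, so deletion was not limited to stem cells, and the Lgr5-GFP-IRES-CreER allele is known for mosaic expression, so the sort samples the crypts that express it. The labels used here give no age, diet duration or tamoxifen schedule. Stem cells were the Lgr5-eGFP-high cells and progenitors the Lgr5-eGFP-low cells, in both cases negative for CD45, CD31, Ter119 and the dead-cell dye 7AAD, positive for EpCAM and low or negative for CD24.

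PolyA RNA was sequenced and gene counts were estimated by the authors, with library totals of 3307711 to 7337425 counts and a median of 5655066. Column headers give the group of a library but not its replicate number, so libraries are lettered a to d within a group in column order. For the same reason sex could not be tied to a library by its labels. The Xist level of each library was used only as a covariate in an alternative fit. Nothing states that the 4 libraries of a group came from separate mice, so p-values measure the spread between these libraries, which may be technical. Cpt1a was at 18.8 to 30.6 CPM (counts scaled to a common library size) in the 16 KO libraries and at 119 to 347 in the 16 WT libraries, with no overlap. Summed over the marker lists, stem cell markers reached 10082 to 16156 TPM (a share of transcripts corrected for their length and scaled to a fixed total) in stem cells and 1671 to 5097 in progenitors. Goblet cell markers summed to 696 to 2229 TPM in stem cells and 17404 to 38112 in progenitors, Paneth cell markers to 590 to 7681 and 8784 to 60957, and enterocyte markers to 173 to 3499 and 983 to 13839. Enteroendocrine markers summed to 7.0 to 53.4 TPM in stem cells and 600.3 to 1325 in progenitors, and tuft cell markers to 3.5 to 13.0 and 11.6 to 37.6. White blood cell markers were near the bottom of the scale, at 3.75 to 8.80 TPM in stem cells and 6.03 to 11.8 in progenitors. The sorted progenitors therefore carried RNA of several differentiated lineages, chiefly goblet, Paneth and enterocyte, and in bulk RNA a smaller share of one cell type and less RNA per cell of that type cannot be told apart.

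The mitochondrial ribosome translates the few proteins encoded by mitochondrial DNA, all of them subunits of the respiratory chain or of ATP synthase. It descends from a bacterial ribosome, and some of its proteins have bacterial homologues while others were gained in the mitochondrial lineage. All of its proteins are made in the cytosol and imported, so the ribosome needs mRNAs from the nuclear genome to be matched with ribosomal RNA from the mitochondrial genome. In the intestinal crypt, stem cells are known for active mitochondrial respiration.

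Genes of this module are short and often stand close to another start site. In the GENCODE M21 annotation of GRCm38 (mm10), the 78 genes lay on 17 chromosomes, with a median gene length of 7899.5 bases, against 24140 bases for the other tested protein-coding genes. A protein-coding gene on the opposite strand started within 1000 bases upstream of 18 of the 78 (23.1%), against 10.5% of the other tested protein-coding genes. Mrps18b, for example, starts 45 bases from Ppp1r10, Mrpl51 100 bases from Ncapd2, and Mrps12 172 bases from Sars2, the mitochondrial seryl-tRNA synthetase. Exons of 33 members share bases with an exon of another annotated gene, among them Mrps11 and Mrpl46, which overlap by 173 bases on opposite strands. Whether counting used strand is not given in the sources used here, so reads of such pairs may be mixed.

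Promoter sequences from RefSeq (GRCm38.p6, 250 bases before to 50 bases after the start) were found for 69 of the 78 genes. Each was searched on both strands for the core letters of 3 factors known for nuclear genes of mitochondria. The ETS core CCGGAAG, read by GABPA, was in the promoters of 26 of the 69 members (37.7%), against 20.9% of other tested genes and 9.93% of all genes in the promoter table. The YY1 core AAGATGGC was in 12 (17.4%), against 5.42% and 3.19%, and the NRF1 core GCATGCGC was in 8 (11.6%), against 6.11% and 3.05%. Most of the YY1 matches lay outside the 100 bases before the start, where the core was in 1 member (1.45%), against 0.994% of other tested genes. In those 100 bases the ETS core was in 21.7% of members, against 11.3%, and the NRF1 core in 7.25%, against 3.5%. At least 1 of the cores was in 38 of the 69 promoters, a count that was not made for other genes and so has no background here. The cores can share letters, since the ETS core ends and the YY1 core begins with AAG, and the YY1 core ends and the NRF1 core begins with GC, so matches to 2 cores need not be separate stretches. A match is a description of the letters and not a binding site. The 150 bases before the start are given here for 8 members, limited to windows with no annotated exon. Mrpl20, Mrpl58, Mrps16 and Mrps36 are among the 10 members with the largest fold difference between populations, Mrpl42 and Mrps14 are among the most abundant, Mrps22 is a second example with an ETS core, and Mrps17 did not pass the test between populations. Letters run 5′ to 3′ on the gene's strand, and capitals mark the ETS core.
Mrpl20 (chr4:155802728-155802877, plus strand): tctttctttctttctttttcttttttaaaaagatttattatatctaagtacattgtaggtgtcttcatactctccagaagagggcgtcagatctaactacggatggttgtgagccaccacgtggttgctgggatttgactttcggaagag
Mrpl58 (chr11:115403602-115403751, plus strand): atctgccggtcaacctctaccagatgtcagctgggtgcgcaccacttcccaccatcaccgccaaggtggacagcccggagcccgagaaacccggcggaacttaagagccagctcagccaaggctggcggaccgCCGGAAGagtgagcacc
Mrps16 (chr14:20393635-20393784, minus strand): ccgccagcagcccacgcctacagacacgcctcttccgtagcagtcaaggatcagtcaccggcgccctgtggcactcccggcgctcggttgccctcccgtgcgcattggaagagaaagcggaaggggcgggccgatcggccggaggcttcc
Mrps36 (chr13:100744660-100744809, minus strand): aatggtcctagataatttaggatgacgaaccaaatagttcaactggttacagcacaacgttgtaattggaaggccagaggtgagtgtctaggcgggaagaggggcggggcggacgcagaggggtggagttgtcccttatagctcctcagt
Mrpl42 (chr10:95501950-95502099, minus strand): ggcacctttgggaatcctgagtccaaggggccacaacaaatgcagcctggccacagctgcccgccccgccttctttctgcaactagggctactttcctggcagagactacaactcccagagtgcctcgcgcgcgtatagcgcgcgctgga
Mrps14 (chr1:160195065-160195214, plus strand): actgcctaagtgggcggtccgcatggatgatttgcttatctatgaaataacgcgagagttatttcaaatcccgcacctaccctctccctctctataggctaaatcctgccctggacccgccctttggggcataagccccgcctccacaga
Mrps22 (chr9:98601680-98601829, minus strand): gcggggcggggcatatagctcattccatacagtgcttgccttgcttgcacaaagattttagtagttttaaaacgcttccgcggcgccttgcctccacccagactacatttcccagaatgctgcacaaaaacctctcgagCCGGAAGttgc
Mrps17 (chr5:129715347-129715496, plus strand): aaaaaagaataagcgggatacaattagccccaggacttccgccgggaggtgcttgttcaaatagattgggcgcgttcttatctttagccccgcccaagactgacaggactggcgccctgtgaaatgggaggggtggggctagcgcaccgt
Of the 8, Mrpl58 and Mrps22 hold the ETS core within these 150 bases, Mrpl58 at 17 bases and Mrps22 at 11 bases before the start, and the other 6 hold none of the 3 cores there.

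All 78 mRNAs were measured in every group, most of them within a narrow range of levels. Averaged over 32 libraries, the median member was at 126 TPM, 51 of the 78 were above 100 TPM, and 74 lay between 40 and 320 TPM. Mrpl42, a large subunit protein with no bacterial homologue, had the highest level at 557 TPM, with libraries from 436.9 to 676.7. Next came Mrpl28, a large subunit protein of bacterial descent, at 316 TPM (245 to 391), and Mrpl12, the stalk protein that in bacteria recruits translation factors, at 305 TPM (231 to 370). Mrps14 followed at 273 TPM (212 to 315) and Mrps18c at 262 TPM (179 to 309), both small subunit proteins of bacterial descent. These 5 overlapped with their neighbours in rank, apart from Mrpl42, whose lowest library stood above the highest of Mrpl28.

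At the low end, Mrpl57 averaged 47.1 TPM (36.1 to 56.2) and Mrpl47 46.3 TPM (29.7 to 67.0), so their libraries overlapped almost fully. Mrpl1, a protein of the mobile stalk beside the exit site, averaged 33.6 TPM (28.2 to 43.0), and Mrpl11, from the base of the stalk that binds elongation factors, 23.5 TPM (18.4 to 29.7). Mrpl23, a protein of the polypeptide exit tunnel, was listed lowest at 9.77 TPM (1.86 to 27.2). Its level is uncertain, because a processed copy, Mrpl23-ps1, took a mean of 399 estimated counts per library against 41.3 for Mrpl23 itself.

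**Figure D1:**
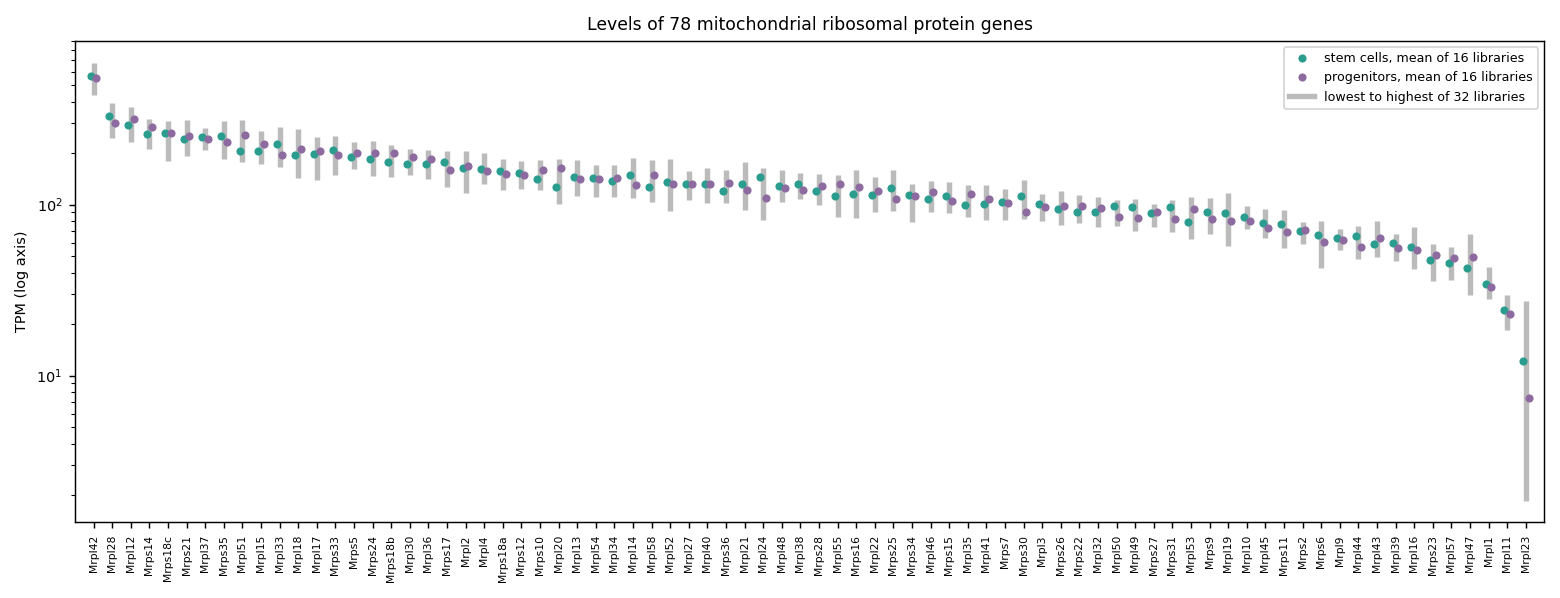
Level of each of the 78 genes in TPM on a log axis, with stem cell and progenitor means (n = 16 libraries each) and a bar from the lowest to the highest of 32 libraries. Mrpl42 stands at 557 TPM, 74 genes lie between 40 and 320 TPM, and Mrpl23 has the widest bar.

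As a share of the transcriptome, the module was as large in stem cells as in progenitors. Summed TPM was 10672 ± 830 in stem cells and 10738 ± 725 in progenitors (SD, n = 16 each), or 1.07% of all TPM in each, a ratio of 0.994. Small subunit mRNAs summed to 0.531 ± 0.011 of large subunit mRNAs in stem cells and to 0.532 ± 0.010 in progenitors, and no library left the range of 0.506 to 0.553. A ratio of 2 sums takes out what libraries share, so it is given as a description.

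On a count scale that adjusts for composition, the same module was lower in stem cells. TMM scaling sets libraries to each other so that most genes do not differ, and the resulting value is given here as CPM, counts as a share of the scaled library. The summed CPM was 5977 ± 703 in stem cells (5110 to 7388) and 7205 ± 530 in progenitors (6375 to 8138), a ratio of 0.830. By group, the ratio of stem cells to progenitors was 0.875 in KO HF, 0.809 in KO HFC, 0.866 in WT HF and 0.770 in WT HFC mice. Summed TPM gave 1.02, 0.954, 1.06 and 0.942 for the same groups in the same order. In the WT HFC mice, the sum was 5520 ± 269 CPM in stem cells and 7170 ± 595 CPM in progenitors (n = 4 each), with no overlap. In the KO HF mice it was 6114 ± 1032 CPM in stem cells and 6985 ± 251 CPM in progenitors, where stem cell library a, at 7388 CPM, lay above all of the progenitor libraries.

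The share taken by the most abundant mRNAs differed between the populations as well. The 100 most abundant genes of a library held 21.8% of TPM in stem cells and 26.6% in progenitors, and the TMM factor averaged 1.06 in stem cells and 0.944 in progenitors. The median of all 13088 tested genes stood at 0.02 (log2, stem cells over progenitors) on the TMM scale and at 0.27 on the log2 TPM scale, so a log2 TPM difference near 0.27 sits at the median gene. Differences of single members are given without subtracting that median. Relative to the median gene, the median member differed by -0.29 (log2) with TMM scaling, by -0.29 with library totals alone and by -0.26 on log2 TPM. TMM scaling and library totals differ by a factor per library that shifts all genes alike. Subtracting the median gene takes that factor out, so the likeness of those values is no separate result. What part the lineage markers listed above have in either scale was not tested.

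**Figure D2:**
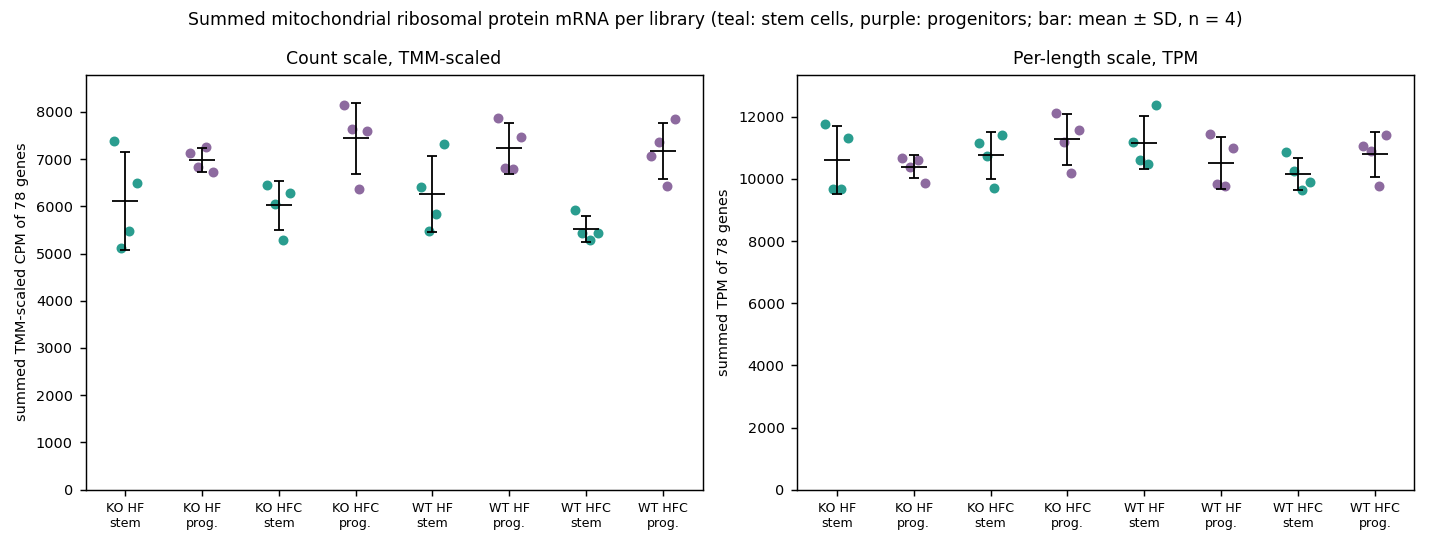
Sum over the 78 genes in each library, left as TMM-scaled CPM and right as TPM, with the mean and SD of 4 libraries for each group, stem cells beside progenitors. Stem cells averaged 5977 and progenitors 7205 on the CPM scale, while the TPM sums of 10672 and 10738 overlap throughout.

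Most members were lower in stem cells than in progenitors once composition was scaled. Averaged over the 4 genotype and diet groups, 62 of the 78 fell and 1, Mrpl23, was higher by edgeR's quasi-likelihood test at a Benjamini-Hochberg adjusted p under 0.05. Over all tested genes, 31% were lower and 32.5% higher in that comparison. The median member differed by -0.26 (log2), and 74 of 78 differences were negative. No member was so far apart that its 16 stem cell libraries all lay outside its 16 progenitor libraries, which was the case for 10.2% of all tested genes. The differences were therefore small, between 1.11-fold and 1.54-fold for called members.

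The count of calls depends on the scale, and direction does too for part of the module. On log2 TPM, limma called 17 members lower and 19 higher in stem cells, where 15.1% of all genes were lower and 58.2% higher. Of the 62 members called lower on the TMM scale, 17 were also lower on log2 TPM, 41 were not called and 4 (Mrpl38, Mrpl39, Mrpl45 and Mrps9, named after their values were seen) were higher. After each library's median gene was subtracted from log2 TPM, 62 members were lower and none higher, against 30.8% of all genes lower. With library totals alone, 35 were lower and 5 higher, against 20.7% and 49.4% of all genes. The 17 members called lower on log2 TPM were called lower on every one of the 7 scales and tools compared. They were Mrpl12, Mrpl15, Mrpl20, Mrpl30, Mrpl35, Mrpl36, Mrpl46, Mrpl47, Mrpl51, Mrpl53, Mrpl55, Mrpl58, Mrps10, Mrps14, Mrps18b, Mrps24 and Mrps36. Several of the 7 share the same counts and a like scaling, so they are not separate results. The share of all genes lower under all 7 was not counted, so the 17 have no background here.

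**Figure D3:**
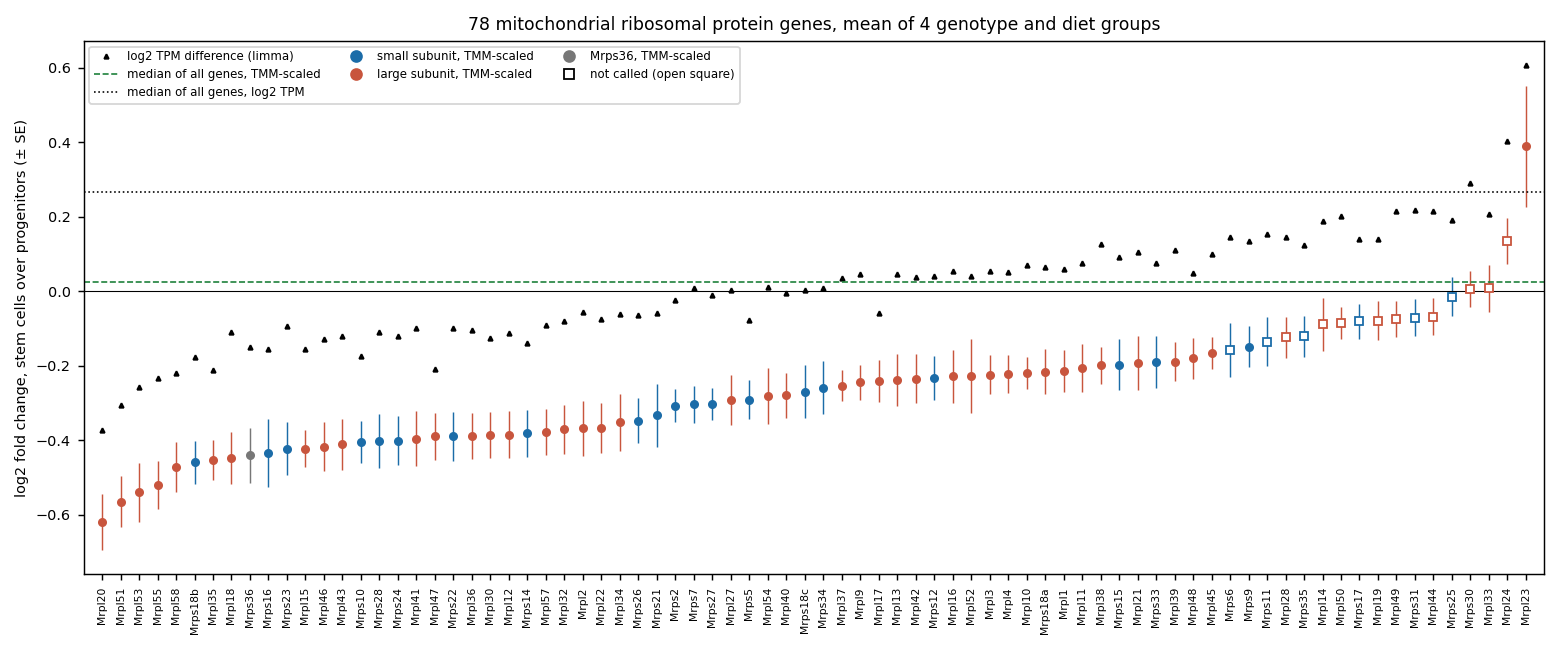
Log2 fold change of stem cells over progenitors for each of the 78 genes (TMM-scaled, edgeR, ± SE, mean of the 4 genotype and diet groups), with open squares for genes not called and black triangles for the difference in log2 TPM. With TMM scaling 62 genes were called lower, while on log2 TPM 17 were lower and 19 higher, and on both scales the median member sits below the line for the median of all genes.

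Large subunit proteins of bacterial descent included the member that differed most. Mrpl20, whose bacterial homologue binds ribosomal RNA early in large subunit assembly, was at 36.5, 46.1 and 59.4 CPM in stem cells (lowest, median and highest of 16) and at 53.2, 74.1 and 87.8 CPM in progenitors. It lies at chr4:155802878-155809975 on the plus strand (mm10), and its promoter window is printed above. In WT HFC mice its stem cell libraries were at 42.0, 47.5, 38.0 and 42.9 CPM. Its progenitor libraries there were at 68.0, 83.2, 53.2 and 77.7 CPM, so the groups did not overlap. In WT HFC mice that held for 48 of the 78 members, all lower in stem cells. Among all genes it held for 20.5% that were lower and for 38.1% in either direction. In the other groups such members were all lower as well. Their share was 17.9% in WT HF, 29.5% in KO HFC and 12.8% in KO HF mice. Of all genes, 17.9%, 17.1% and 15.8% were lower without overlap in the same order, and 33.0%, 32.4% and 28.2% in either direction. The share of members was thus above that of lower genes in KO HFC mice, alike in WT HF and below in KO HF mice. Across the 4 combinations the log2 fold change of Mrpl20 was -0.62 ± 0.08 (SE, 1.54-fold lower, adjusted p = 2.4e-08), and on log2 TPM it was -0.37. Within single groups it was -0.55 in KO HF, -0.59 in KO HFC, -0.62 in WT HF and -0.73 in WT HFC mice, called in each.

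Others of this class followed. Mrpl35 was at 64.2, 81.0 and 102.8 CPM in stem cells and at 93.9, 110.4 and 128.0 CPM in progenitors (log2 fold change -0.45 ± 0.05, adjusted p = 1.6e-08). Mrpl18, which in human cells also helps bring 5S ribosomal RNA into mitochondria, was at 90.8, 111.8 and 151.3 CPM in stem cells and at 131.3, 156.8 and 191.5 CPM in progenitors (-0.45 ± 0.07, adjusted p = 1.8e-06). It shares 141 exon bases with Tcp1 on the opposite strand, and on log2 TPM its difference of -0.11 did not pass the test. Of the 29 proteins of this class, 23 were lower and 1, Mrpl23, was higher, with a class median of -0.24. The most abundant of them, Mrpl12, was lower by edgeR (-0.38), while Mrpl28 narrowly missed the threshold (-0.12 ± 0.06, adjusted p = 0.053). Mrpl33 did not differ detectably, at 55.6, 71.1 and 88.0 CPM in stem cells and 59.8, 70.3 and 82.1 CPM in progenitors (0.01 ± 0.06, adjusted p = 0.92). Mrpl24 had a positive difference of 0.14 ± 0.06 that did not pass (adjusted p = 0.057), though on log2 TPM it was called higher at 0.40, above the 0.27 of the median gene.

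Large subunit proteins without a bacterial homologue gave 3 of the 5 largest differences. Mrpl51 was at 79.9, 97.1 and 125.6 CPM in stem cells and at 105.4, 143.5 and 173.0 CPM in progenitors. Its groups overlapped only at the edge, and its log2 fold change was -0.56 ± 0.07 (1.48-fold lower, adjusted p = 1.6e-08), or -0.31 on log2 TPM. Mrpl53 was at 23.0, 31.0 and 41.8 CPM in stem cells and at 34.4, 45.8 and 55.8 CPM in progenitors (-0.54 ± 0.08, adjusted p = 7.2e-07). Its exons share 695 bases with the overlapping gene Gm42688 on the same strand, so its counts are uncertain. Mrpl55 was at 36.1, 50.0 and 62.0 CPM in stem cells and at 58.6, 71.0 and 82.2 CPM in progenitors (-0.52 ± 0.07, adjusted p = 4.0e-08). In this class 16 of 19 were lower, with a median of -0.25, and Mrpl44, Mrpl49 and Mrpl50 were not called.

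Mrpl58 stands apart by its role. It is a relative of bacterial release factors that is built into the large subunit and, in human cells, frees peptides from stalled ribosomes. It was at 35.1, 42.7 and 58.3 CPM in stem cells and at 49.8, 61.3 and 75.0 CPM in progenitors, with a log2 fold change of -0.47 ± 0.07 (1.39-fold lower, adjusted p = 4.6e-07). On log2 TPM its difference was -0.22, also called lower. The 2 large subunit proteins with small subunit names did not move alike: Mrps18a was lower at -0.22 ± 0.06 (adjusted p = 2.6e-03) and Mrps30 was at 0.01 ± 0.05 (adjusted p = 0.92). Mrps30 was at 84.7, 102.7 and 129.6 CPM in stem cells and 94.1, 102.7 and 116.5 CPM in progenitors, so the medians met, while on log2 TPM it was called higher at 0.29, close to the median gene. On that scale the 0.07 of Mrps18a did not pass.

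Small subunit proteins gave similar shares. Of those with a bacterial homologue, 13 of 16 were lower (median -0.30), and of those without one, 6 of 9 (median -0.26). Mrps18b, one of several mammalian relatives of bacterial protein S18, was at 80.7, 100.7 and 138.2 CPM in stem cells and at 120.9, 146.5 and 161.0 CPM in progenitors. Its log2 fold change was -0.46 ± 0.06 (1.38-fold lower, adjusted p = 3.1e-08), called in each of the 4 combinations, and -0.18 on log2 TPM. Its exons share 638 bases with Gm16279 on the opposite strand. Mrps16 was at 24.4, 35.2 and 54.4 CPM in stem cells and 40.3, 48.7 and 61.6 CPM in progenitors (-0.43 ± 0.09, adjusted p = 1.3e-04), but its -0.16 on log2 TPM did not pass. The small subunit members that were not called were Mrps6, Mrps11, Mrps17, Mrps25, Mrps31 and Mrps35. Mrps36, no longer counted as a subunit, was at 37.1, 44.5 and 62.0 CPM in stem cells and 49.0, 61.8 and 77.9 CPM in progenitors. Its difference (-0.44 ± 0.07, adjusted p = 5.7e-06) was larger than the -0.26 of the median member.

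**Figure D4:**
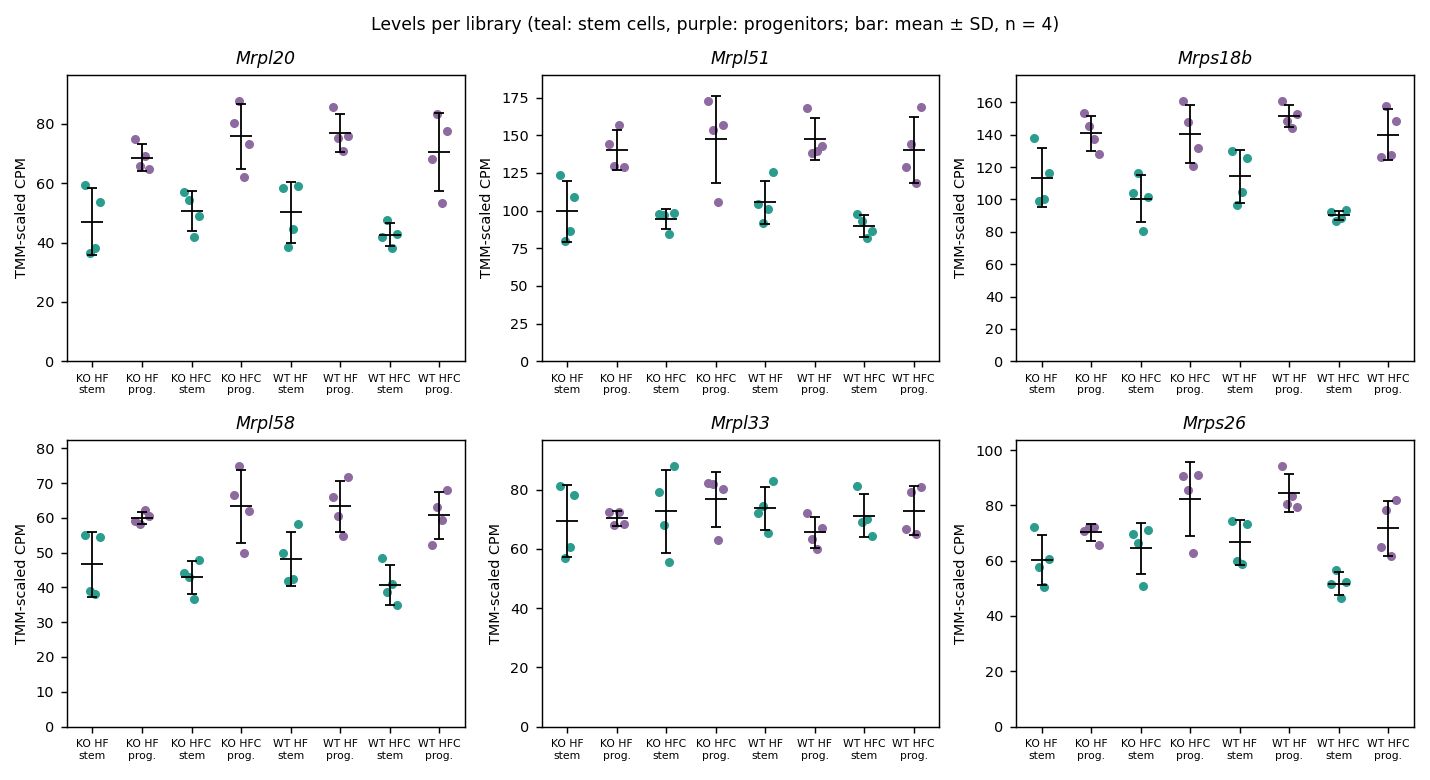
TMM-scaled CPM of 6 members in each library with the mean and SD of 4 libraries per group, stem cells (teal) beside progenitors (purple). Mrpl20, Mrpl51, Mrps18b and Mrpl58 have lower means in stem cells in each genotype and diet on this scale, Mrpl33 overlaps throughout, and Mrps26 in stem cells is lowest in WT HFC mice.

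The one member called higher, Mrpl23, did not keep that call when its copy was counted with it. Mrpl23 itself was at 4.09, 7.04 and 15.02 CPM in stem cells and at 3.96, 6.54 and 9.92 CPM in progenitors (0.39 ± 0.16, adjusted p = 0.038). Mrpl23-ps1, on the other hand, averaged 70.7 ± 10.9 CPM in stem cells and 73.2 ± 8.8 CPM in progenitors (-0.05 ± 0.07, adjusted p = 0.53). Summed, the pair differed by -0.01 ± 0.06 (adjusted p = 0.88). RSEM, among the tools in the submitters' processing notes, divides reads that fit several loci by estimation, so the split between them is uncertain.

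Within single genotype and diet groups fewer members passed. In KO HF mice 15 members were lower in stem cells, against 17.3% of all genes, with a median of -0.20. In KO HFC mice 38 were lower, against 19.5% of all genes (median -0.31). In WT HF mice 22 were lower, against 20.1% (median -0.21), and in WT HFC mice 52 were lower, against 22% (median -0.40). The share of members in KO HF mice was close to the background of all genes, and none was called higher in any of the 4. Called lower in all 4 were 12 members, Mrpl15, Mrpl20, Mrpl35, Mrpl36, Mrpl43, Mrpl47, Mrpl51, Mrpl55, Mrpl58, Mrps2, Mrps10 and Mrps18b, or 15.4% of members against 13.3% of all genes. In none of the 4 were 23 called, or 29.5% against 46.3% of all genes. These counts rest in part on single libraries. Without KO HF stem cell library a the KO HF count was 34, and without library b it was 2. Without WT HF stem cell library d the WT HF count was 35. The share of all genes in those fits is not set beside these counts, so they show only how far the count moved. Over such fits the member median ran from -0.31 to -0.11 in KO HF mice and from -0.29 to -0.14 in WT HF mice.

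Other genes of mitochondrial translation gave calls in both directions on the TMM scale and mostly higher ones on log2 TPM, where 58.2% of all genes were higher. Lists of them were counted in the same tests, averaged over the 4 genotype and diet groups. Over all genes in those tests, 31% were lower and 32.5% higher on the TMM scale, and 15.1% were lower on log2 TPM. Calls in both directions on the TMM scale are therefore common among all genes and no trait of these lists. Of 5 ribosome subunits that go under other names, Aurkaip1 (-0.27) and Chchd1 (-0.22) were lower and Dap3, Ptcd3 and Gadd45gip1 were not called, while on log2 TPM 3 of the 5 were higher and 0 lower. Of 24 assembly factors 6 were lower and 6 higher (median 0.02), and among the higher ones Mrm1, which methylates mitochondrial ribosomal RNA, was at 0.49 ± 0.06 (adjusted p = 1.4e-08). On log2 TPM 21 of the 24 were higher and 0 lower. Of 13 translation factors 5 were lower and 2 higher, with the elongation factors Gfm1 at -0.43 ± 0.06 and Tufm at -0.36 ± 0.05, and with Guf1, a GTPase related to elongation factors, at 0.45 ± 0.05, and on log2 TPM 1 was lower and 7 higher. Of 17 mitochondrial aminoacyl-tRNA synthetases 6 were lower and 2 higher (median -0.06), and on log2 TPM 0 were lower and 11 higher. Of the 13 protein genes of the mitochondrial genome only mt-Nd1 was called, lower at -0.26 ± 0.08, and on log2 TPM 0 were lower and 4 higher. Among 10 regulators of mitochondrial biogenesis 2 were lower and 4 higher (median 0.07), and on log2 TPM 0 were lower and 7 higher. Esrra, a nuclear receptor that drives such genes with its coactivators, was lower at -0.57 ± 0.08, Ppargc1b lower at -0.28 ± 0.07, and Myc higher at 0.80 ± 0.07.

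Complex I subunits, the nucleus-encoded part of the first respiratory chain complex, were lower for 35 of 36 (median -0.43), whereas cytosolic ribosomal proteins had 8 lower and 6 higher of 84 (median 0.00). On log2 TPM 21 of the 36 complex I subunits were lower and 1 higher, and of the cytosolic ribosomal proteins 2 were lower and 62 higher. Relative to the median of all genes on that scale, mitochondrial ribosomal proteins stood at -0.26, complex I at -0.41, assembly factors at 0.05 and translation factors at -0.05. Proliferation genes, 20 in all, had 7 higher and 2 lower on the TMM scale and 17 higher and 1 lower on log2 TPM. Differences between these lists were not tested.

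Diet moved no member past the threshold. Comparisons within a population use CPM scaled among the libraries of that population alone, so these values are not on the scale of the paragraphs above and are not set against those of the other population. In WT stem cells on HF against HFC, edgeR called 0 of 78 members, against 0.25% of all genes, and 8 of 78 had an unadjusted p under 0.05, against 11.7% of all genes, a share near that background. DESeq2 also called none and had 8 under 0.05. The median member nevertheless stood at 0.18 (log2) with 77 of 78 positive, beside a median of 0.01 over all genes. On log2 TPM, 8 of 78 were negative and the median was 0.12. Without WT HF library d the median was 0.08. Members rise and fall together from library to library, so the count of positive signs is not a count of independent results. The standard error of a single member's log2 fold change was about 0.14, so a change of this size could not be called gene by gene.

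Mrpl17, a large subunit protein of bacterial descent, had the smallest p in that comparison. It was at 112.8, 95.0, 89.1 and 109.4 CPM in WT HF stem cells and at 83.7, 85.8, 79.2 and 71.3 CPM in WT HFC stem cells, without overlap (0.34 ± 0.11, adjusted p = 0.23). Mrps26, a small subunit protein gained in mitochondria, was at 78.5, 63.8, 62.8 and 77.8 CPM in WT HF stem cells and at 54.4, 60.0, 49.6 and 55.8 CPM in WT HFC stem cells (0.36 ± 0.13, adjusted p = 0.26). Mrps18b was at 137.4, 102.8, 111.4 and 133.6 CPM in WT HF stem cells and at 97.2, 91.9, 94.5 and 99.6 CPM in WT HFC stem cells (0.34 ± 0.12, adjusted p = 0.29). All 3 were higher in every WT HF library than in any WT HFC library, and none passed the adjusted test. Since they were taken for their small p-values, lack of overlap adds little. It held for 9 of the 78 members, all higher, and for 6.66% of all genes in either direction (3.55% higher). Lineage markers moved in the same libraries. Goblet markers summed to 1837 to 2229 TPM in WT HF stem cells and 696 to 1370 in WT HFC stem cells, with 2 of 10 called higher, and enterocyte markers to 959 to 1645 and 173 to 496, with 2 of 10 called higher. The part of these cells in the member values was not tested. Complex I subunits were positive for 35 of 36 (median 0.14) and cytosolic ribosomal proteins for 63 of 84 (median 0.07), none called.

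In KO stem cells on HF against HFC no member was called (0.0645% of all genes), and none had an unadjusted p under 0.05, against 4.71% of all genes. The median was 0.03, with 49 positive and 29 negative, though on log2 TPM 41 were negative. The sign of that median rests on single libraries, since it was -0.08 without KO HF library a and -0.03 without KO HFC library c. Mrpl11 had the smallest p, at 0.24 ± 0.15 (adjusted p = 0.999), and Mrpl39 and Mrps18b followed at 0.17 and 0.19. The diet by genotype interaction in stem cells, which tests whether the diet effect differed between KO and WT, called none (0% of all genes). Its median was -0.14 with 69 of 78 negative, and 1 member had an unadjusted p under 0.05, against 3.58% of all genes. Without a single library that median ran from -0.25 (without KO HF library a) to -0.05 (without WT HF library d), and it was -0.21 without WT HF library b and -0.06 without KO HF library b. That member was Mrps26, at -0.45 ± 0.18 (adjusted p = 0.999), and Mrps24 (-0.36) and Mrpl17 (-0.27) came next. A diet effect on the module in one genotype and not in the other was therefore not shown for any member.

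Progenitors showed no diet call either. For WT progenitors on HF against HFC the share of all genes called was 0.0883%, and 1 member had an unadjusted p under 0.05, against 7.06% of all genes. Signs were split, 38 positive and 40 negative, with a median of 0.00 (-0.04 on log2 TPM) that changed sign in 4 of 8 fits without a single library. Mrpl23 had the smallest p at -0.65 ± 0.27 (adjusted p = 0.66), with the limit given above for its copy, and Mrps26 (0.23) and Mrps35 (-0.16) followed. For KO progenitors the share of all genes called was 0.313%, and 7 members had an unadjusted p under 0.05, against 9.77% of all genes. There the median was -0.09 with 66 of 78 negative (-0.16 to -0.04 without single libraries), led by Mrpl14 (-0.22), Mrpl28 (-0.21) and Mrpl4 (-0.24), each at an adjusted p of 0.45. Mrpl14 was at 53.3, 49.4, 48.2 and 49.7 CPM in KO HF progenitors and at 62.5, 57.1, 50.4 and 63.9 CPM in KO HFC progenitors, an overlap made by 1 library. The interaction in progenitors called none (0% of all genes), with a median of -0.09 (-0.16 to -0.04 without single libraries), 61 of 78 negative and 3 members with an unadjusted p under 0.05, against 4.5% of all genes. Those 3 were Mrps26 (-0.46 ± 0.16, adjusted p = 0.97), Mrpl14 (-0.31) and Mrpl38 (-0.25).

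Loss of Cpt1a changed no member past the threshold in either population. In HFC stem cells, KO over WT had a median of 0.12 (0.07 without KO HFC library a) with 69 of 78 positive, and called none, against 0.242% of all genes. Only 1 member had an unadjusted p under 0.05, against 4.73% of all genes. It was Mrps26, at 73.5, 69.6, 54.0 and 74.8 CPM in KO HFC stem cells and the WT HFC values given above (0.31 ± 0.13, adjusted p = 0.91), where KO library c overlapped with the WT libraries. Mrpl17 (0.22) and Mrps12 (0.21), a protein of the decoding centre, came next, and Mrps12 did not overlap, at 65.0, 65.4, 61.8 and 72.5 CPM in KO HFC and 57.9, 53.8, 60.4 and 56.4 CPM in WT HFC stem cells. Lack of overlap held for 3 of the 78 members, all higher, and for 3.95% of all genes in either direction (2.08% higher). This comparison and the diet comparison in WT stem cells share the 4 WT HFC libraries, which had the lowest mean of the stem cell groups in summed CPM. Their likeness is therefore no separate result.

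In HF stem cells, KO over WT had a median of -0.04 with 52 of 78 negative, and none called, against 0.443% of all genes. That sign rests on single libraries too, since the median was 0.04 without KO HF library b, 0.0041 without KO HF library c and 0.05 without WT HF library d. No member had an unadjusted p under 0.05 there, against 6.38% of all genes, and the smallest p-values belonged to Mrpl16 (-0.23), Mrps24 (-0.20) and Mrpl14 (-0.23). In HFC progenitors the median was 0.06 (0.0082 to 0.12 without single libraries) with 64 positive. None was called, against 0.257% of all genes, and 1 had an unadjusted p under 0.05, against 5.8%. That was Mrpl23 at -0.62 ± 0.27 (adjusted p = 0.79), followed by Mrpl47 (0.23) and Mrps6 (0.29). In HF progenitors the median was -0.04 with 55 negative, and 0.01 without WT HF library a. None was called, against 0.706% of all genes, and 1 had an unadjusted p under 0.05, against 10.6%. Mrps26 was at 67.0, 68.5, 68.0 and 62.1 CPM in KO HF progenitors and at 89.1, 75.0, 78.1 and 74.9 CPM in WT HF progenitors, without overlap (-0.26 ± 0.11, adjusted p = 0.43). Such lack of overlap held for 2 of the 78 members, all lower, and for 7.11% of all genes in either direction (3.31% lower). Mrpl53 (-0.26) and Mrps34 (-0.20) followed.

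**Figure D5:**
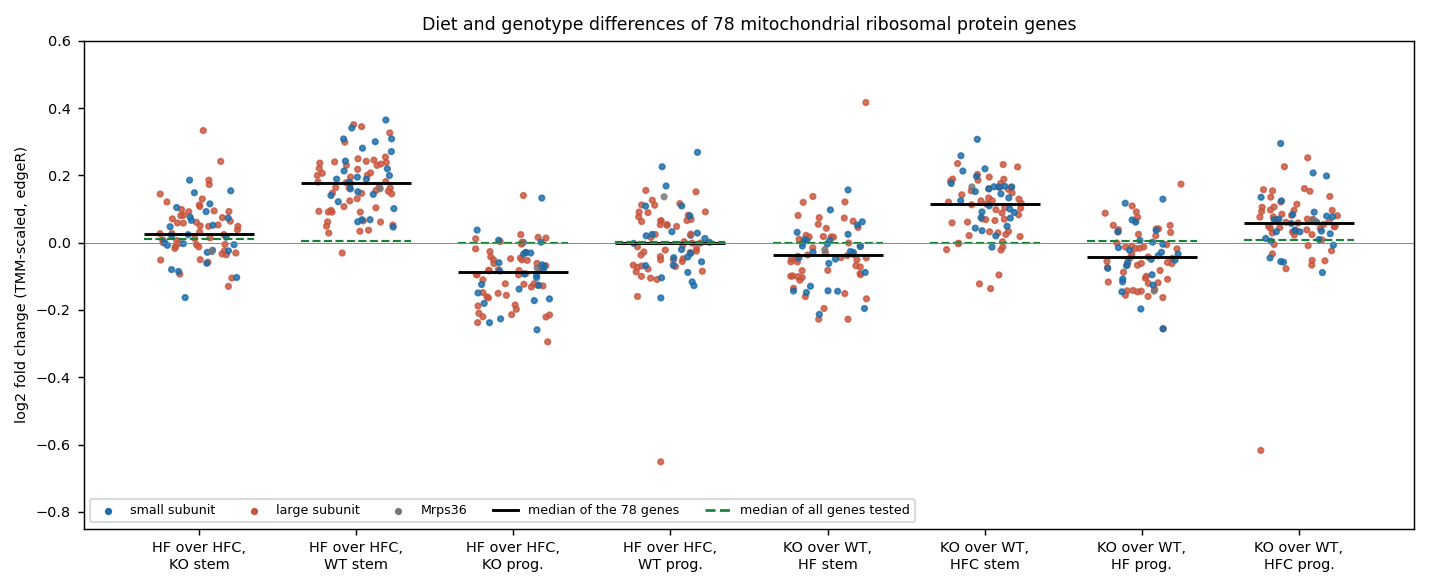
Log2 fold changes of the 78 genes (TMM-scaled, edgeR) for diet in KO and WT cells and for genotype on each diet, 1 point per gene, with a black bar for the member median and a dashed bar for the median of all tested genes. Medians run from -0.09 in KO progenitors to 0.18 in WT stem cells for HF over HFC, and none of the 78 was called in any column.

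Diet and genotype effects were also set against each other between the populations. The diet effect in stem cells minus that in progenitors had a median of 0.17 in WT mice, with 72 of 78 positive and 3 with an unadjusted p under 0.05, against 3.23% of all genes. Mrpl37 (0.32 ± 0.12), Mrpl40 (0.39) and Mrps35 (0.35) were those 3, and none was called (0% of all genes). In KO mice the median was 0.11, with 70 positive and none under 0.05, against 2.96% of all genes and 0% called, and Mrpl4 had the smallest p at 0.27. The genotype effect in stem cells minus that in progenitors had a median of 0.07 on HFC, with 59 positive, 1 under 0.05 (Mrps35 at 0.33) and 0% of all genes called, against 2.01% under 0.05. On HF the median was 0.03 with 44 positive, none under 0.05 against 2.53% of all genes, 0% called, and Mrpl49 had the smallest p at 0.20. A member's standard error in these comparisons was about 0.18, and on log2 TPM or library totals alone the HF median took the opposite sign. That median also changed sign in 5 of 16 fits without a single library. Over the same kind of fits the WT diet median ran from 0.08 to 0.23, the KO diet median from 0.03 to 0.19 and the HFC genotype median from 0.0073 to 0.13.

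Mrps26 had the smallest unadjusted p in 4 of the 10 comparisons within a population, which share libraries. In progenitors it was at 86.4, 80.5, 59.4 and 86.9 CPM in KO HFC mice and at 61.8, 73.4, 58.1 and 77.5 CPM in WT HFC mice, beside the HF values above. On the separate scale of the stem cell libraries it was at 76.8, 61.9, 53.6 and 63.7 CPM in KO HF mice. Its adjusted p never came under 0.26, and within the KO HFC groups library c was lowest in both populations.

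Within groups, the members rose and fell together across libraries. After each group's mean was taken out, the log2 CPM of a member correlated with the mean of the other members at a median r of 0.83 over 32 libraries, and 76 of 78 were above 0.5. Other tested genes had a median of -0.04 against the same mean, and 14.6% were above 0.5. Most like the module were Mrpl12 (0.95), Mrpl42 (0.93), Mrpl18 (0.93), Mrps21 (0.93) and Mrps28 (0.93). Least like it were Mrpl37 (0.62), Mrps30 (0.58), Mrps27 (0.53), a protein with RNA-binding repeats, Mrps2 (0.43) and Mrpl23 (0.04). On log2 TPM the median was 0.64. All of these points share a library's depth, scaling and cell mixture, so the values are a description with no test.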

How the data were processed

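The expected counts per gene were deposited by the authors as whole numbers, and a matching deposited table holds log2 of TPM plus 1. The submitters' processing notes name STAR 2.5.3a, RSEM 1.3.0, SAMtools 1.3 and mm10, without role or order. Strand setting and annotation are not given in the sources used here. Gene IDs were matched to symbols, and TPM was taken back from log2 with the pseudocount of 1.

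Counts were tested with edgeR 4.0.16 in R 4.3.3 (filterByExpr with a minimum count of 10, TMM, robust quasi-likelihood fits), with Benjamini-Hochberg adjustment over all genes tested at 0.05. One fit of 32 libraries gave the population comparisons, and fits of 16 libraries gave diet, genotype and interaction. Standard errors are the log2 fold change divided by the root of F. Some comparisons were tested on simulated data, with 50 genes changed at each fold. For diet in WT stem cells, 0% of 1.2-fold, 32% of 1.5-fold and 72% of 2-fold changes were called. For populations averaged over the 4 groups the same folds gave 28%, 84% and 92%, and in WT HFC mice alone 4%, 30% and 74%. Changes of 1.2-fold were therefore mostly missed in the simulation. For populations averaged over the 4 groups it gave 156 calls over 13088 genes, where the data gave 8315. With fewer calls the adjusted threshold is stricter, so these rates do not carry over to the members called in that comparison. Alternatives were DESeq2 1.42.0, RLE factors, no filter, limma 3.58.1 on log2 TPM, the Xist level as covariate, only the groups compared and leaving out each library. Library totals alone, centred log2 TPM and the Mrpl23 sum were chosen after seeing the data.

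The members and lists were chosen with earlier results of these data known. Named members were the 5 highest and 5 lowest by TPM, up to 10 called in each direction between populations, the 3 smallest p-values in comparisons without calls, and those with a special role. Mrpl55 was left out of its role list at first and was added after the files were seen. Protein sequences were not used here.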

Additional observations from a re-analysis of the deposited data

Results flagged for a closer look

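Dixon's test looked for a library far from the other 3 of its group, for the 40 named members and the summed levels, in 360 sets of 4 libraries, and marked 13. Chance alone marks a small share of such sets, so single marks carry little weight. Whether 13 of 360 is more than chance gives was not tested. Members rise and fall together, so marks that fall on one library are not separate results. The sums over the module were not marked. Mrpl1 stood at 36.73 TPM in WT HFC stem cell library a, above the other libraries at 31.31 to 31.75 TPM. In WT HF stem cell library d, Mrpl42 was at 676.71 TPM, above the 560.72 to 574.12 TPM of the rest. WT HFC stem cell library a had Mrpl42 at 597.21 TPM, with the others between 498.99 and 510.73 TPM. Mrpl49 stood at 69.99 TPM in KO HF progenitor library c, below the other libraries at 82.76 to 84.51 TPM. In KO HFC stem cell library c, Mrpl53 was at 68.26 TPM, below the 85.05 to 87.27 TPM of the rest. KO HF progenitor library c had Mrpl9 at 54.02 TPM, with the others between 59.53 and 60.58 TPM. Mrpl9 stood at 72.06 TPM in WT HFC progenitor library a, above the other libraries at 63.49 to 64.91 TPM. In KO HF progenitor library c, Mrps12 was at 159.72 TPM, above the 125.91 to 130.67 TPM of the rest. WT HF stem cell library d had Mrps14 at 315.21 TPM, with the others between 271.37 and 276.08 TPM. Mrps18a stood at 122.49 TPM in WT HFC progenitor library c, below the other libraries at 161.13 to 163.93 TPM. In KO HFC stem cell library d, Mrps27 was at 100.4 TPM, above the 83.83 to 85.93 TPM of the rest. WT HFC progenitor library b had Mrps35 at 224.64 TPM, with the others between 262.03 and 269.38 TPM. Mrps9 stood at 109.26 TPM in KO HF stem cell library a, above the other libraries at 91.67 to 93.41 TPM. Library c of the KO HF progenitors was marked for Mrpl9, Mrpl49 and Mrps12, library d of the WT HF stem cells for Mrpl42 and Mrps14, and library a of the WT HFC stem cells for Mrpl1 and Mrpl42. The causes were not tested.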

How the results depend on the processing

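Between stem cells and progenitors, the count of members called depended on the scale. Averaged over the 4 genotype and diet groups, 63 members were called with TMM (62 lower and 1 higher). Limma on log2 TPM called 36 (17 lower and 19 higher) and library totals alone 40 (35 lower and 5 higher). The counts of calls that follow take either direction. Those within groups and those without single libraries stand without the share of all genes, so they show only how far the counts moved. Within groups, limma on log2 TPM called 7 in KO HFC, 10 in WT HF and 13 in WT HFC mice. Library totals alone called 5 in KO HF, 16 in KO HFC, 10 in WT HF and 30 in WT HFC mice. Centred log2 TPM called 9 in KO HF and 13 in WT HF mice, and the groups compared alone gave 8 in KO HF mice. DESeq2, RLE factors, no filter and the Xist covariate called 66, 65, 61 and 65 on average, within 1.5 times the main count. Of all 13088 genes, DESeq2 called 4183 higher and 4111 lower, RLE factors 4201 and 4105, and the Xist covariate 4322 and 4122. With no filter 4503 of 30753 genes were higher and 4361 lower. Leaving out 1 library at a time gave 2 to 34 calls in KO HF, 20 to 52 in KO HFC, 11 to 35 in WT HF and 37 to 56 in WT HFC mice, and 61 to 68 on average, where 61 members were lower in all 32 such fits. Libraries whose removal moved a count by over 1.5 times were, for KO HF, stem cells a (34), b (2) and c (5) and progenitors c (7). For KO HFC they were stem cells c (20) and progenitors a (23) and b (25). For WT HF they were stem cells b (11), c (12) and d (35) and progenitors a (11). Mrpl23 turned from higher to -0.012 when summed with Mrpl23-ps1. Mrpl18 and Mrps16 lost their call on log2 TPM. In the 14 diet, genotype and difference comparisons no member was called in any of 270 alternative fits. Over those fits the median of WT stem cells on HF against HFC ran from 0.08 to 0.22. The median likeness of 0.83 was 0.64 on log2 TPM, and in the 100 bases before the start the ETS core was in 21.7%, the NRF1 core in 7.25% and the YY1 core in 1.45% of member promoters, against 11.3%, 3.5% and 0.994% of other tested genes. No paired analysis was possible because the columns carry no replicate numbers. The causes of these shifts were not tested.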
